A study of Arabidopsis thaliana with 32 samples.

Results

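The genes described here lost transcript within 1.5 h of white light by a similar amount in wild-type Arabidopsis seedlings and in seedlings of the hy5 mutant, which is defective in HY5, a light-signalling bZIP transcription factor. Levels are CPM (read counts scaled to library size), and each group was summarised as its mean of log2(CPM + 1). Genes were chosen by these measured values: a gene was taken when the 1.5 h mean lay at least 1.2 below the dark mean in both Col and hy5 and when the 2 falls differed by at most 0.5. Of 19685 genes, 158 met this rule. A fall of that size was seen in 318 genes in Col and in 251 in hy5, and 189 had it in both, of which 31 were more than 0.5 apart, 17 with the deeper fall in Col and 14 with the deeper fall in hy5. Because these values chose the genes, all differences among Col and hy5 in the dark and at 1.5 h are given as a description with no test.

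RNA was sequenced from whole seedlings of the Columbia ecotype, 40 per sample, in 32 libraries that form 12 groups. Col is the wild type and hy5 the mutant, and the 3 other genotypes express a FLASH-tagged HY5 in the hy5 background from 35S, a viral promoter active in most cells. OX carries 35S:FLASH-HY5, VP16 carries 35S:FLASH-HY5-VP16, in which HY5 is joined to a transcriptional activation domain, and SRDX carries 35S:FLASH-HY5-SRDX, in which it is joined to a repression motif. Seeds of every group were kept at 4°C for 7 days, had 1 h of white light to start germination and then grew in darkness at 21°C for 3 days. Dark samples were taken at that point under a green safe light, and light samples after a further 1.5 h or 4 h in white light of 100 µmol per square metre per second. There are 3 libraries for each of Col, hy5, OX and VP16 at the dark and 1.5 h stages. SRDX is represented by 2 libraries per stage, the 4 h stage included, and 2 hy5 libraries add the only other 4 h group. The hy5 allele is not named in the labels, which also do not say how many independent transformants each line represents or whether samples came from separate cultures, so the p-values below measure the spread between these samples, which may be technical.

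Seedlings that germinate in darkness follow an etiolated programme in which the hypocotyl elongates, the apical hook stays closed and chlorophyll synthesis waits at its light-requiring step. PIF transcription factors maintain this programme in the dark, and phytochromes switched on by light remove them, so many PIF targets lose transcript quickly. In parallel HY5 builds up and activates many light-induced genes, and dark-grown seedlings short of sugar express starvation genes that light and sugar turn down.

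Depth ranged from 7499581 to 21420680 reads over the measured genes, and 3 reads correspond to 0.137 to 0.394 CPM. HY5 transcript was 21.7 to 30.0 CPM in dark Col, 207 to 232 in Col at 1.5 h, 19.4 to 24.4 in dark hy5, 25.1 to 25.2 in hy5 at 1.5 h, and 79.1 to 85.4 in hy5 at 4 h. It was 12317 to 16907 CPM in dark OX, 1946 to 2619 in dark VP16 and 969 to 1082 in dark SRDX, so the transgene level differed between the lines. Marker genes of heat shock and handling, 27 in number and none of them among the 158, were summed as a sign of how samples were treated. That sum was 675 to 788 CPM in dark Col and 1036 to 1429.9 in Col at 1.5 h, and in VP16 it went from 449 to 495 in the dark to 1481 to 2831, the highest value being that of VP16 replicate 2 at 1.5 h. In whole-seedling RNA a loss of cells of one type and a loss of RNA per cell cannot be told apart.

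Together the 158 genes gave 22171 to 25129 CPM in dark Col, 27016 to 29646 in dark hy5, 27205 to 30139 in dark OX, 27422 to 32215 in dark VP16 and 26202 to 29576 in dark SRDX. At 1.5 h the sums were 6301 to 7496 in Col, 6760 to 8236 in hy5, 4977 to 5980 in OX, 6883 to 9238 in VP16 and 8039 to 8136 in SRDX. At 4 h they were 4773 to 6042 in hy5 and 7338 to 7422 in SRDX. Every light library lay far below every dark library in this sum. The genes held 2.39% to 3.07% of the CPM of a dark library and 0.457% to 0.866% of that of a light library.

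**Figure D1:**
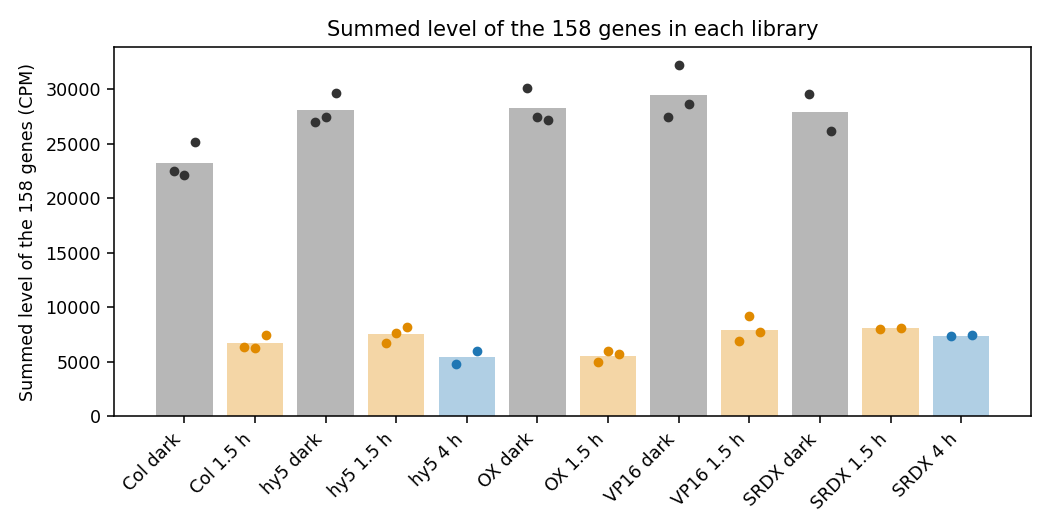
Summed level of the 158 genes in CPM (y axis) in each of the 12 groups (x axis). Bars are group means and points single libraries, dark in grey, 1.5 h in orange and 4 h in blue. The lowest dark library is at 22171 CPM and the highest light library at 9238 CPM.

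The depth of the fall ranged widely among the genes. Its median was 1.63 on the log2 scale in Col and 1.65 in hy5, and the deepest fall was that of GRF7 (AT5G53660), a growth-regulating factor. GRF7 gave 92.7, 97.6 and 88.6 CPM in the 3 dark Col libraries and 3, 3.97 and 6.04 at 1.5 h. In hy5 it gave 115, 112 and 111 in the dark and 3.88, 6.21 and 4.05 at 1.5 h. Light and dark libraries did not overlap, and the falls were 4.18 and 4.34. Next in depth came AT5G44260, a CCCH zinc finger protein, with a mean of 97.9 CPM in dark Col and 5.15 at 1.5 h. The other 10 of the 12 deepest were PIL1, ST2A, bbx23, HB52, IAA29, HB-2, HLS1, HSD5, AT5G02580 and SNRK2.5, with falls of 2.86 to 3.63 over both genotypes. Of these, bbx23 was near the level of 3 reads in light SRDX, with means of 0.364 CPM at 1.5 h and 0.0324 CPM at 4 h. At such light levels the fall in log2(CPM + 1) depends mainly on the dark level. Every 1.5 h library lay below every dark library for all 158 genes in Col and in hy5, as it did for 24.3% and 25.2% of all genes. This separation follows largely from the rule, which used the same libraries.

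At the limits of the rule, the 3 genes nearest inside the fall limit were AT1G71970, AT3G62550 and NUDT8, with falls in Col of 1.204, 1.203 and 1.202. The nearest outside were AT4G29690, AT1G80440 and AT4G30370, with falls in hy5 of 1.199, 1.198 and 1.196. By the difference between genotypes, OLEO3, STP14 and BETA-TIP were just inside at 0.48, 0.48 and 0.49, and FHL, AT2G01610 and WRKY49 just outside at 0.50, 0.50 and 0.51. FHY1, which carries phytochrome A into the nucleus, was thus a member while its homologue FHL was not.

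OX, VP16 and SRDX at 1.5 h against dark were not used by the rule and were tested. With limma over all 19685 genes and a call at a Benjamini-Hochberg adjusted p below 0.05, all 158 genes were lower in OX, where 22.6% of all genes were lower and 23.59% higher. In SRDX 155 were lower, against 12.7% of all genes lower and 13.9% higher. In VP16 147 were lower and 1, the ethylene receptor gene ETR2, was higher, against 22.1% and 22.4% of all genes. None was higher in OX or SRDX, also at an unadjusted p below 0.05 and with edgeR or DESeq2 (0 in each case). Over the 158 genes the difference ran from -4.60 to -0.83 in OX, from -3.29 to 0.48 in VP16 and from -4.24 to -0.28 in SRDX. The median difference was -2.04 in OX, -1.62 in VP16 and -1.52 in SRDX, beside 0.01, -0.01 and -0.00 over all genes. In all, 144 of the genes were lower in all 3 lines.

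**Figure D2:**
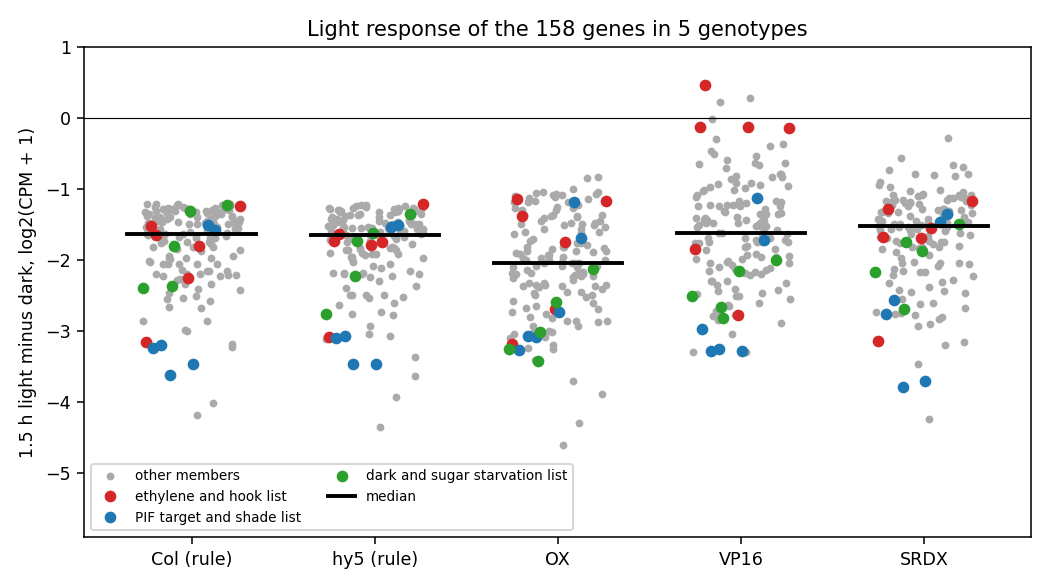
Light response (1.5 h minus dark, log2(CPM + 1), y axis) of the 158 genes in 5 genotypes (x axis); Col and hy5 chose the genes. Each point is a gene, coloured by gene list, and black bars are medians; the medians lie between -2.04 and -1.52, and in VP16 3 of the 6 ethylene and hook genes (red) lie between -0.14 and -0.12 and 1, ETR2, lies above 0.

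GRF7 also led the falls in the lines. It gave 62.0, 60.3 and 65.0 CPM in dark OX and 1.46, 1.71 and 1.7 at 1.5 h, 56.0, 51.2 and 50.7 in dark VP16 and 3.61, 6.23 and 3.94 at 1.5 h, and 72.5 and 80.8 in dark SRDX and 3.32 and 2.91 at 1.5 h. Light and dark libraries were far apart in each line. The fall was 4.60 ± 0.20 (SE) in OX, 3.29 ± 0.20 in VP16 and 4.24 ± 0.25 in SRDX (limma, adjusted p = 1.65e-17, 4.34e-14 and 6.35e-14). At 4 h in SRDX GRF7 had a mean of 6.73 CPM, above the 3.12 CPM of 1.5 h by 0.86 ± 0.25 (limma, adjusted p = 0.0140). That 4 h level was also higher than in hy5 at 4 h, by 1.39 ± 0.25 (limma, adjusted p = 1.42e-04). The 3 genes not called lower in SRDX were LRX2 (-0.28 ± 0.44), RTFL12 (-0.80 ± 0.31) and AT1G44830 (-0.56 ± 0.28). LRX2, a cell wall protein of root hairs, gave 55.8 and 20.9 CPM in dark SRDX and 28.3 and 27.99 at 1.5 h.

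The windows from 250 bases before to 50 bases after the annotated gene start (RefSeq, TAIR10.1) were searched on both strands for short motifs, since HY5 and PIFs both bind G-boxes. The G-box CACGTG was in 21 of the 158 windows (13.3%, against 9.02% of 19581 windows), and the related PBE-box CACATG in 20 of the 158 windows (12.7%, against 13% of 19581 windows). The ACGT core that a G-box contains, which was added to the search after values were seen, was in 85 of the 158 windows (53.8%, against 50.9% of 19581 windows). The evening element core AATATCT was in 26 of the 158 windows (16.5%, against 11.5% of 19581 windows), the FHY3 site CACGCGC in 2 of the 158 windows (1.27%, against 1.7% of 19581 windows), the auxin response element TGTCTC in 15 of the 158 windows (9.49%, against 13.6% of 19581 windows) and the ABA response element ACGTGG, which can overlap a G-box, in 19 of the 158 windows (12%, against 11.1% of 19581 windows). A match is a string of letters and not a binding site. The following 3 windows are shown because they belong to genes described below or among the deepest falls and hold a G-box, given in capitals. HSD5 encodes a hydroxysteroid dehydrogenase, ASN1 a glutamine-dependent asparagine synthase and OLEO3 an oleosin of seed oil bodies.
HSD5, chr4:6268023-6268322, plus strand: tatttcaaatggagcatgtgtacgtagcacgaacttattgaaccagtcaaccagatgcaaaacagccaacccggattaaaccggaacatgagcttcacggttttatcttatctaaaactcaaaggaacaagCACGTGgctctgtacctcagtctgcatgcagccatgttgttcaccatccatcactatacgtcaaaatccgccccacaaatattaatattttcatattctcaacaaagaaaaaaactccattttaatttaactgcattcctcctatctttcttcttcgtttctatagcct
ASN1, chr3:17441382-17441681, minus strand: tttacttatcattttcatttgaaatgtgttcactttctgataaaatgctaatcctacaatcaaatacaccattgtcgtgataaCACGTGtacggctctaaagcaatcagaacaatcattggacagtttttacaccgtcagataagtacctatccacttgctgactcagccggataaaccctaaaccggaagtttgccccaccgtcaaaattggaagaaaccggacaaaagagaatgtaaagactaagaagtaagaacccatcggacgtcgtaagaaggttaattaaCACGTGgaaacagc
OLEO3, chr5:20819818-20820117, plus strand: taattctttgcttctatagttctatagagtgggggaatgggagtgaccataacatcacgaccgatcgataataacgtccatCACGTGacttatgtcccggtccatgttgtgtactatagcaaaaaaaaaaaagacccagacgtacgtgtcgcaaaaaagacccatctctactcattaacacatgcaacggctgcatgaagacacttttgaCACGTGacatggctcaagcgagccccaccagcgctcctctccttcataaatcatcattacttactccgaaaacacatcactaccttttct
The G-box began at -119 from the start in HSD5, at -167 and 36 in ASN1 and at -169 and -40 in OLEO3. HSD5 shares part of its span with a gene on the opposite strand, so its level may include reads of that gene if strand was not used in counting.

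Genes tied to PIFs and shade formed one group. All 6 members of the list of PIF targets and dark or shade markers (PIL1, PIL2, HB-2, HAT3, IAA29 and ST2A) fell in OX, VP16 and SRDX. Of the 20 other measured genes of that list, 12 fell and 7 rose in OX, 10 fell and 6 rose in VP16, and 9 fell and 8 rose in SRDX. PIL1, a bHLH protein named for its likeness to PIF3 and an early shade marker, gave 45.2, 47.2 and 43.1 CPM in dark Col and 3.33, 3.06 and 2.04 at 1.5 h. It gave 38.7, 33.5 and 34.9 in dark VP16 and 2.5, 2.82 and 3.28 at 1.5 h. Dark levels in all 5 genotypes ranged from 31.1 to 48.1 CPM and light levels from 2.04 to 3.81, with no overlap. Its fall was 3.08 ± 0.14 in OX, 3.25 ± 0.14 in VP16 and 3.79 ± 0.17 in SRDX (limma, adjusted p = 1.31e-17, 5.34e-18 and 7.32e-17). HB-2 (ATHB-2), a homeodomain-leucine zipper factor of shade elongation, gave 98.1, 95.0 and 87.2 CPM in dark hy5 and 11.2, 9.54 and 10.1 at 1.5 h. At 4 h HB-2 gave 9.99 and 8.65 in hy5 and 17.3 and 16.9 in SRDX, the SRDX libraries standing above those of hy5 (difference 0.81 ± 0.12, limma, adjusted p = 9.78e-06). HAT3, another factor of that class, and PIL2 fell less, by 1.69 ± 0.12 and 1.17 ± 0.17 in OX.

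ST2A encodes a sulfotransferase of hydroxyjasmonate and differed between lines in the dark. It gave 137, 149 and 176 CPM in dark OX, 245, 239 and 217 in dark VP16 and 128 and 142 in dark SRDX. The VP16 libraries stood above all libraries of the other lines, by 0.60 ± 0.13 over OX and 0.78 ± 0.14 over SRDX (limma, adjusted p = 0.00192 and 1.35e-04). At 1.5 h it gave 18.9, 26.5 and 22.3 in OX, 21.3, 30.4 and 19.2 in VP16 and 9.74 and 9.23 in SRDX, and its fall was deeper in SRDX than in OX by 0.98 ± 0.20 (limma, adjusted p = 0.00126).

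Light signalling genes were represented by PHOT1, the blue-light receptor of phototropism, by FHY1 and by the B-box genes BBX17 and bbx23. All 4 fell in each of the 3 lines. Among the 55 other measured genes of that list 18 fell and 31 rose in OX, 17 fell and 28 rose in VP16, and 15 fell and 25 rose in SRDX. BBX17 gave 43.5, 49.1 and 43.6 CPM in dark Col and 7.64, 8.31 and 8.66 at 1.5 h, whereas it gave 64.1, 64.1 and 59.9 in dark OX, 133, 156 and 127 in dark VP16 and 113 and 82.1 in dark SRDX. The VP16 libraries were the highest, at 1.13 ± 0.23 over OX (limma, adjusted p = 0.00115), while the difference from SRDX, 0.52 ± 0.25, was not called (adjusted p = 0.16). At 4 h BBX17 gave 1.57 and 4.12 CPM in hy5 and 2.15 and 3.18 in SRDX. FHY1 gave 46.8, 50 and 45.3 CPM in dark hy5, 11.7, 12.4 and 10.3 at 1.5 h and 7.92 and 8.58 at 4 h, so the 4 h libraries lay below those of 1.5 h. PHOT1 gave 512, 490.3 and 432 CPM in dark hy5, 187, 187 and 207 at 1.5 h and 342 and 273 at 4 h, so that both 4 h libraries lay between those of the other times.

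PORA and PORB encode the light-dependent enzymes that reduce protochlorophyllide on the way to chlorophyll, and PORA is known as the form of etiolated tissue. PORA gave 1456, 1435 and 1350.1 CPM in dark Col and 401, 424 and 506 at 1.5 h. In hy5 it gave 1817, 1805 and 1888 in the dark, 367, 587 and 549 at 1.5 h and 17.56 and 47.8 at 4 h. In SRDX it gave 1711 and 2003, then 301 and 381, then 69.9 and 112. The libraries of the 3 times did not overlap in either genotype. From 1.5 h to 4 h PORA fell further by 1.92 ± 0.29 in SRDX and PORB by 0.63 ± 0.20 (limma, adjusted p = 2.10e-05 and 0.0208). In hy5 the same steps were -4.03 and -2.33, given with no test since hy5 at 1.5 h chose the genes. At 4 h PORA stood higher in SRDX than in hy5 by 1.57 ± 0.29 and PORB by 1.14 ± 0.20 (limma, adjusted p = 1.91e-04 and 8.00e-05). PORB shares part of its span with AT4G27450 on the opposite strand, also a member, and with unknown use of strand in counting their reads may not be fully separate.

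Genes of dark and sugar starvation held some of the highest levels, and DYL1 had the highest dark level of the 158 genes over Col and hy5. All 5 members of that list fell in OX, VP16 and SRDX, and of the 23 other measured genes 18 fell in OX, 19 in VP16 and 17 in SRDX, with 2 higher in each. The members were DYL1, related to dormancy-associated proteins, the asparagine synthase gene ASN1, DIN10 of the raffinose synthase family, BCE2 (DIN3), a subunit of the branched-chain ketoacid dehydrogenase, and BT2, a BTB and TAZ domain protein. DYL1 gave 1772, 1302 and 2324 CPM in dark Col and 346, 277 and 388 at 1.5 h. It gave 3059.6, 1854 and 1707 in dark OX and 213, 254 and 204 at 1.5 h. It fell by 3.25 ± 0.24 in OX, 2.51 ± 0.24 in VP16 and 2.16 ± 0.29 in SRDX (limma, adjusted p = 1.22e-12, 3.94e-10 and 8.82e-07).

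ASN1 gave 419.6, 503 and 480.4 CPM in dark Col and 567, 655 and 722 in dark hy5. In the dark lines it gave 1267, 1439 and 1266 in OX, 1773, 2000.1 and 1641 in VP16 and 1369 and 899 in SRDX, all above every Col and hy5 library. At 1.5 h ASN1 gave 89.2, 79.1 and 103 in Col, 92.9, 159 and 125 in OX, 199, 439.6 and 266 in VP16 and 189.8 and 156 in SRDX. From 1.5 h to 4 h in SRDX it fell further, to 79.0 and 71.1 CPM, by 1.19 ± 0.26 (limma, adjusted p = 0.00138). STP1, a hexose uptake carrier of the plasma membrane, gave 376, 346 and 401 CPM in dark Col and 150.4, 136 and 162 at 1.5 h. In VP16 STP1 went from 665, 882 and 679 CPM in the dark to 166, 289 and 213 at 1.5 h, again with no overlap. STP1 and BCE2 each share part of their span with a gene on the opposite strand. The dark libraries of all 3 lines were above those of Col and hy5 for 10 of the 158 genes, among them ASN1, DIN10, BCE2, STP1 and AT1G21400, against 2.04% of all genes. They were below for 14, among them GRF7, GRF2, XTH5, PDC3 and GH9B12, against 1.22% of all genes. Both counts rest on the dark Col and hy5 libraries that the rule used and are given with no test.

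Most members of the ethylene and hook list responded differently in VP16 than in OX, and this list was singled out after its values were seen. The list of ethylene and hook genes had 6 members: ETR2, an ethylene receptor; EBF2, an F-box protein that targets the ethylene regulator EIN3; ARL, related to the organ-size gene ARGOS; HLS1, which keeps the apical hook closed; and the AP2/B3 DNA-binding proteins TEM1 (EDF1) and RAV1 (EDF4). All 6 fell in OX and in SRDX, while in VP16 only HLS1 and RAV1 fell and ETR2 rose. ETR2 gave 30.7, 28.5 and 30.3 CPM in dark OX and 10.4, 10.5 and 11.9 at 1.5 h. It gave 20.4, 23.1 and 14.8 in dark VP16 and 23.0, 33.1 and 25.7 at 1.5 h, where 1 light library lay within the dark range. In SRDX it gave 29.7 and 32.3 in the dark and 13.1 and 11.5 at 1.5 h. ETR2 fell by 1.37 ± 0.15 in OX and 1.27 ± 0.19 in SRDX and rose by 0.48 ± 0.15 in VP16 (limma, adjusted p = 1.00e-08, 3.81e-06 and 0.0115). The rise in VP16 was no longer called without VP16 replicate 3 in the dark (0.30, adjusted p = 0.128) or VP16 replicate 2 at 1.5 h (0.33, adjusted p = 0.102).

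The difference between responses, VP16 minus OX, was tested directly. It was called higher in VP16 for 5 of the 6 (ETR2 1.85 ± 0.21, ARL 1.62 ± 0.24, HLS1 1.34 ± 0.25, TEM1 1.02 ± 0.19 and EBF2 1.01 ± 0.22), with adjusted p between 3.20e-06 and 0.00733 in limma. RAV1 differed by -0.09 ± 0.17 (adjusted p = 0.866). EBF2 gave 332, 365 and 333 CPM in dark OX and 119, 173 and 184 at 1.5 h, against 335, 338 and 310.1 in dark VP16 and 239, 377 and 299 at 1.5 h. In VP16 its light and dark libraries overlapped, and in OX they did not. ARL gave 54.9, 55.2 and 48.8 CPM in dark VP16 and 36.5, 64.6 and 48.5 at 1.5 h, whereas in OX it went from 69.5, 62.7 and 71.2 to 14.2, 23.7 and 21.9. Over all 158 genes the response was higher in VP16 for 31 and lower for 0, against 1.82% and 1.46% of all genes. At an unadjusted p below 0.05 it was lower for 2, and with edgeR and DESeq2 for 0, while without OX replicate 1 or VP16 replicate 2 at 1.5 h limma called 1 lower. The median difference was 0.37 over the members and -0.01 over all genes. OX had the deepest median response, -2.04, beside -1.62 in VP16, -1.52 in SRDX, -1.63 in Col and -1.65 in hy5. Between VP16 and SRDX the median difference was -0.02 over the members.

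The same direction was seen in ethylene genes outside the 158. Of the 25 other measured genes of the list, 7 had a higher response in VP16 than in OX and 0 a lower one. They were ARGOS (1.48), the receptor genes ERS2 (1.23) and ERS1 (0.95), the ACC oxidase gene EFE or ACO4 (1.15), EDF3 (1.14), the kinase gene CTR1 (0.82) and EBF1 (0.64). Several of these are known to rise with ethylene, and a part of ethylene in these responses was not tested. The count of 5 of 6 members was the same under each of the alternatives run, including each library left out, and the count over the whole list was 12 and moved between 11 and 14. Against SRDX the VP16 response was higher for ETR2, ARL, HLS1, TEM1 and EBF2 and lower for RAV1 (-1.09 ± 0.19, limma, adjusted p = 2.68e-04); both comparisons use the VP16 libraries. Dark VP16 itself lay lower for 2 of these genes. ETR2 was lower in dark VP16 than in dark OX by 0.61 ± 0.15 and than in dark SRDX by 0.67 ± 0.17, and HLS1 by 0.63 ± 0.18 and 0.62 ± 0.20 (limma, adjusted p = 0.00749, 0.0047, 0.0181 and 0.0262). The ETR2 calls were lost without VP16 replicate 3 (adjusted p = 0.0880 against OX) or SRDX replicate 2 (0.0669 against SRDX), both in the dark. The HLS1 call against OX was lost without OX replicate 2 (0.0828) or VP16 replicate 3 (0.0693). Against SRDX it was lost without VP16 replicate 2 (0.0501) or 3 (0.0756) or SRDX replicate 1 (0.0625) or 2 (0.185). For ARL, TEM1 and EBF2 the dark differences of VP16 from OX were -0.35 ± 0.17, -0.14 ± 0.13 and -0.07 ± 0.16 and were not called. The heat shock and handling sum given above for VP16 was in OX 592 to 614 CPM in the dark and 1042 to 1540.2 at 1.5 h, and the response of 6 of its 27 genes was higher in VP16 than in OX. The summed level of 13 seed storage and lipid mobilisation genes, among them the member OLEO3, went from 6037 to 7026 to 3173 to 3494 CPM in OX and from 6361 to 7247 to 4993 to 5195 in VP16. The sum of 7 cotyledon and plastid markers, none of them members, went from 7963 to 13747 to 16705 to 20268 CPM in OX and from 13056 to 21388 to 22623 to 28660.2 in VP16. The part of these sums in the differences between VP16 and OX was not tested.

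**Figure D3:**
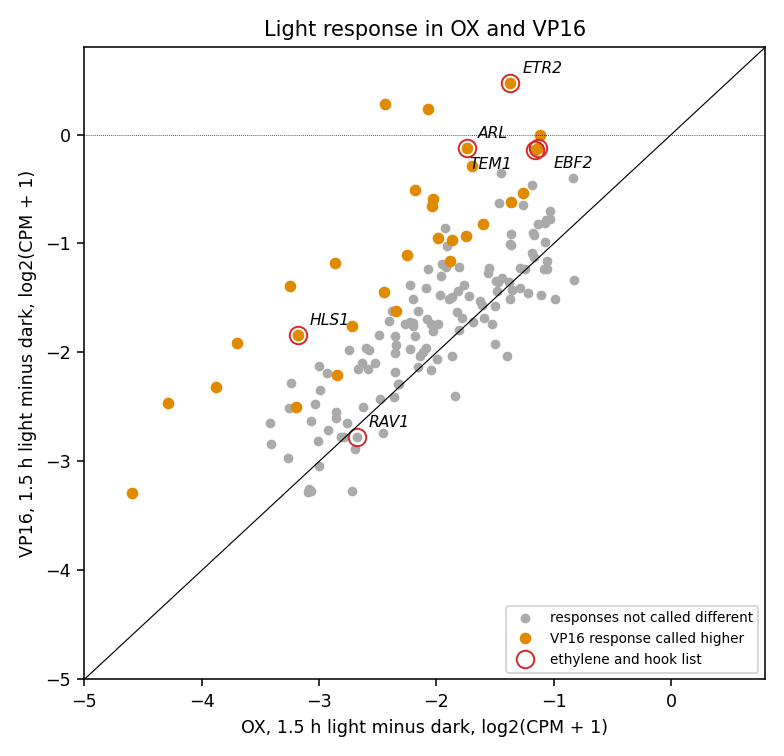
Light response (1.5 h minus dark, log2(CPM + 1)) in OX (x axis) and VP16 (y axis); each point is 1 of the 158 genes. Orange points are the 31 genes whose response was called higher in VP16, red rings mark the 6 ethylene and hook genes, and the diagonal is equal response; ETR2 lies above 0 in VP16.

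None of the 6 windows of the ethylene and hook members held a G-box. ETR2, TEM1 and ARL held the ACGT core, and HLS1, RAV1 and EBF2 did not, with 85 of all 158 windows holding one. The windows of ETR2 and TEM1 are shown with this core in capitals, since the fall of these genes seen in OX was not called in VP16.
ETR2, chr3:8254309-8254608, plus strand: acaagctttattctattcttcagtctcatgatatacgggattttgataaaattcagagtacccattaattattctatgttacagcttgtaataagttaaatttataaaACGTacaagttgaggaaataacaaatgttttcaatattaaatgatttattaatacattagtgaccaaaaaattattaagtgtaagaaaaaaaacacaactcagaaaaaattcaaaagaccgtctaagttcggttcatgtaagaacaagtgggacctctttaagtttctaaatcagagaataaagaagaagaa
TEM1, chr1:8983265-8983564, minus strand: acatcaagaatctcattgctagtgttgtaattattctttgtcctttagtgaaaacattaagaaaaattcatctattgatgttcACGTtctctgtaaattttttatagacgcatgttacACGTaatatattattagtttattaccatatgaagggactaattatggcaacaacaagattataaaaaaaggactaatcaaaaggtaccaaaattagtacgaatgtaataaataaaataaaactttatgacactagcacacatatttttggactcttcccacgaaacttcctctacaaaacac

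Outside the ethylene list the largest differences of VP16 from OX were in AT3G20395, a RING protein gene, ADS1, a delta 9 desaturase gene, and BETA-TIP, an aquaporin gene of the vacuolar membrane. ADS1 gave 47.8, 48.5 and 44.6 CPM in dark OX and 8.88, 11.2 and 11.3 at 1.5 h, against 17.8, 18.5 and 14.4 in dark VP16 and 20.1, 25.7 and 15.2 at 1.5 h. Dark VP16 lay below dark OX by 1.43 ± 0.18 and the response differed by 2.31 ± 0.26 (limma, adjusted p = 2.80e-06 and 2.26e-06). AT3G20395 gave 7.5, 11.6 and 10.4 CPM in dark OX and 0.624, 1.71 and 0.729 at 1.5 h, against 12.9, 9.76 and 8.16 in dark VP16 and 8.55, 21.1 and 10.6 at 1.5 h, and its response differed by 2.72 ± 0.36 (adjusted p = 2.82e-05). The 11 genes not called lower in VP16 were ETR2, ARL, EBF2, TEM1, ADS1, AT3G20395, HEC2, AT4G36010, AT5G39240, AT5G67020 and AT5G02760. Their differences in VP16 ran from -0.50 for HEC2, a bHLH factor, to the rise of ETR2.

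SRDX also differed from OX, whose median fall was the deepest among the genotypes. The median difference of SRDX from OX was 0.38 over the members. The response was higher in SRDX for 37 genes and lower for 6, against 3.82% and 5.29% of all genes. Leaving out SRDX replicate 2 in the dark took the 37 to 13, and leaving out SRDX replicate 1 at 1.5 h took it to 19. The 6 became 3 without OX replicate 3 in the dark, SRDX replicate 2 in the dark, or either SRDX library at 1.5 h. The seed storage and lipid mobilisation sum went from 8239.5 to 9488 to 6596 to 6623 CPM in SRDX, beside the fall in OX given above, and the cotyledon and plastid sum from 7094 to 9397 to 14289 to 14632; their part in the difference was not tested. AT5G19120, an aspartyl protease gene, had a shallower fall in SRDX. It gave 372, 309 and 328 CPM in dark OX and 43.1, 48.2 and 34.01 at 1.5 h, against 349.6 and 289 in dark SRDX and 116 and 110.5 at 1.5 h, a difference of 1.51 ± 0.23 (limma, adjusted p = 2.82e-05). EXPA9, a wall-loosening expansin, fell more in SRDX than in OX, by 0.85 ± 0.14 (adjusted p = 1.12e-04). VP16 compared with SRDX gave 18 genes with a higher and 12 with a lower response in VP16, against 3.84% and 2.67% of all genes, and the 12 became 5 without SRDX replicate 2 in the dark and 7 without SRDX replicate 1 at 1.5 h.

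Auxin, gibberellin and brassinosteroid genes made up 5 members, of which IAA29 is also on the PIF and shade list. IAA29 and IAA20, which encode Aux/IAA repressors of auxin signalling, and ARF18, an auxin response factor, fell in all 3 lines, as did 67 of the 143 other measured auxin genes in OX, 60 in VP16 and 25 in SRDX, with 23, 23 and 20 higher. IAA29 gave 29.2, 35.5 and 30.7 CPM in dark Col and 2.61, 3.7 and 1.46 at 1.5 h, and in SRDX it went from 24.2 and 28.4 to 3.32 and 2.72, with no overlap in either. AT5G14920, a gibberellin-regulated family protein, fell by 2.23 ± 0.22 in OX, 1.38 ± 0.22 in VP16 and 1.16 ± 0.27 in SRDX. BEE3, a bHLH protein of brassinosteroid responses, fell by 1.27 ± 0.15, 0.64 ± 0.15 and 1.44 ± 0.19 in the same order, and in SRDX it was higher at 4 h than at 1.5 h by 1.06 ± 0.19 (limma, adjusted p = 1.68e-04).

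Several members act on the cell wall. Of the glycosyl hydrolase 9 genes, whose family holds endoglucanases, GH9B1, GH9B12, GH9B13 and GH9C3 were members by symbol, and CEL2, a cellulase gene named here after its values were seen, was another endoglucanase gene among the members. CEL2 fell by 2.36 ± 0.18 in OX, 1.85 ± 0.18 in VP16 and 2.32 ± 0.22 in SRDX. GH9B1 gave 421, 468 and 509 CPM in dark Col and 113, 108 and 144 at 1.5 h, and in OX it went from 449, 388 and 399.9 to 66.8, 80.3 and 96.7. It fell by 2.34 ± 0.11 in OX, 1.62 ± 0.11 in VP16 and 2.04 ± 0.14 in SRDX (limma, adjusted p = 9.44e-17, 5.71e-13 and 1.05e-12). EXPA9, XTH5, a xyloglucan endotransglucosylase gene, and AT2G26440 of the pectin methylesterase family were the 3 members on the cell wall list and fell in every line. Of the 117 other genes of that list, 34 fell and 20 rose in OX, 44 fell and 20 rose in VP16, and 15 fell and 17 rose in SRDX. XTH5 gave 29.6, 31.2 and 38.2 CPM in dark Col but 9.5, 9.06 and 12.8 in dark VP16, and dark VP16 lay below dark OX by 0.96 ± 0.15 (limma, adjusted p = 3.71e-05). XYL1, an alpha-xylosidase gene that acts on xyloglucan, gave 301, 311 and 289 CPM in dark hy5, 102, 106 and 99.0 at 1.5 h and 171 and 129 at 4 h, so the 4 h libraries lay between those of the dark and of 1.5 h. Other members had high dark levels or other roles. After DYL1, PORB and PORA the most abundant in the dark were MPK17, a MAP kinase gene, DIN10, AT3G15450, SAG20, AT5G44440, AT3G26510, ASN1, PHOT1 and GH9B1. MPK17 gave 1487, 1797 and 1639 CPM in dark Col and 522, 544 and 613 at 1.5 h, and in OX it went from 2260.1, 2269 and 2001 to 506, 741 and 616. It fell by 1.82 ± 0.13 in OX, 1.63 ± 0.13 in VP16 and 1.65 ± 0.16 in SRDX, and no light library reached a dark one in any of the 3 lines. SAG20, named for its rise in senescence, gave 688, 542 and 927 CPM in dark Col and 284, 240.1 and 325 at 1.5 h and fell by 1.78 ± 0.20 in OX, 1.68 ± 0.20 in VP16 and 1.12 ± 0.25 in SRDX. AT5G44440 of the berberine bridge enzyme family fell by 2.14 ± 0.11, 2.03 ± 0.11 and 2.21 ± 0.14 in the same order, and was higher in dark VP16 than in dark OX by 0.63 ± 0.11 (limma, adjusted p = 3.44e-04). FLS2, the receptor of bacterial flagellin, gave 37.5, 33.2 and 31.8 CPM in dark VP16 and 14.6, 32.6 and 19.96 at 1.5 h, against 50.1 and 47.3 in dark SRDX and 8.89 and 9.23 at 1.5 h. Its response was higher in VP16 than in SRDX by 1.65 ± 0.32 (limma, adjusted p = 7.69e-04), and its span overlaps a gene on the opposite strand. PDC3, a pyruvate decarboxylase gene, had a lower response in VP16 than in SRDX (-1.12 ± 0.27, adjusted p = 0.00842), not called without SRDX replicate 2 in the dark (adjusted p = 0.0535). No gene on the clock, abscisic acid, cytokinin, or heat shock and handling lists was a member.

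**Figure D4:**
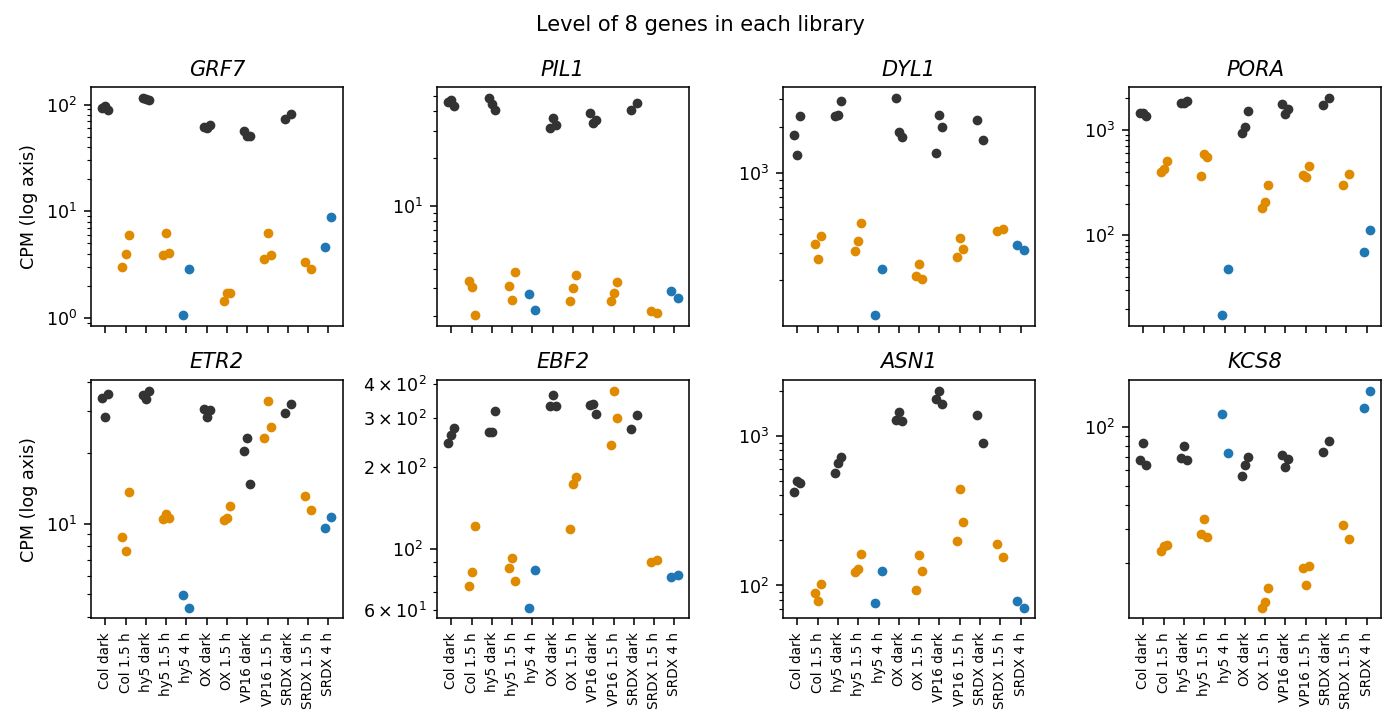
CPM (log axis) of 8 of the genes in each library of the 12 groups, dark in grey, 1.5 h in orange and 4 h in blue. GRF7, PIL1 and DYL1 stayed far below their dark level at 4 h, though GRF7 rose from 1.5 h to 4 h in SRDX. PORA fell again, and KCS8 returned to or above its dark level. At 1.5 h in VP16, ETR2 lay within or above its dark range and EBF2 on both sides of its dark range.

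At 4 h only hy5 and SRDX were sampled. In hy5, 157 of the 158 genes were still below their dark mean, and for 157 every 4 h library lay below every dark library, as for 34.8% of all genes. The median difference from the dark was -1.90 at 4 h, beside -1.65 at 1.5 h, and 111 were lower at 4 h than at 1.5 h; these values share libraries with the rule. In SRDX, 138 genes were called lower at 4 h than in the dark and 1, KCS8, higher, against 23.55% and 23.1% of all genes; without SRDX replicate 1 at 4 h, 2 were higher. From 1.5 h to 4 h, 19 fell further and 33 rose, against 12.2% and 10.8% of all genes. Without SRDX replicate 2 at 1.5 h these became 10 and 16, and without SRDX replicate 1 at 4 h the 19 became 11.

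KCS8, a 3-ketoacyl-CoA synthase gene of fatty acid elongation, was the 1 gene above its dark level at 4 h in both genotypes. In SRDX it gave 74.1 and 84.7 CPM in the dark, 31.5 and 26.7 at 1.5 h and 126 and 153 at 4 h. In hy5 it gave 69.6, 80.1 and 67.9 in the dark, 28.4, 33.7 and 27.4 at 1.5 h and 117 and 73.2 at 4 h. In SRDX the 4 h libraries stood above the dark ones, and in hy5 1 of the 2 did. The rise from 1.5 h to 4 h in SRDX was 2.22 ± 0.17, and the 4 h level exceeded the dark level by 0.80 ± 0.17 (limma, adjusted p = 1.46e-10 and 2.22e-04). ESE3, an AP2-type transcription factor gene, went from 2.78 and 1.86 CPM at 1.5 h to 7.73 and 12.6 at 4 h in SRDX, a rise of 1.73 ± 0.26 (adjusted p = 2.47e-05). In hy5 ESE3 went from 2.41, 1.36 and 1.09 to 2.57 and 3.84. The next percentages are of falls in log2(CPM + 1), not in CPM. Of the hy5 fall at 1.5 h, 49.3% was still present at 4 h in PHOT1, 50.7% in ESE3 and 65.4% in XYL1, and none in KCS8. The fall at 4 h was 312% of that at 1.5 h in PORA, 222% in PORB, 187% in AAP3, an amino acid permease gene, and 170% in WCRKC1, a thioredoxin gene.

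**Figure D5:**
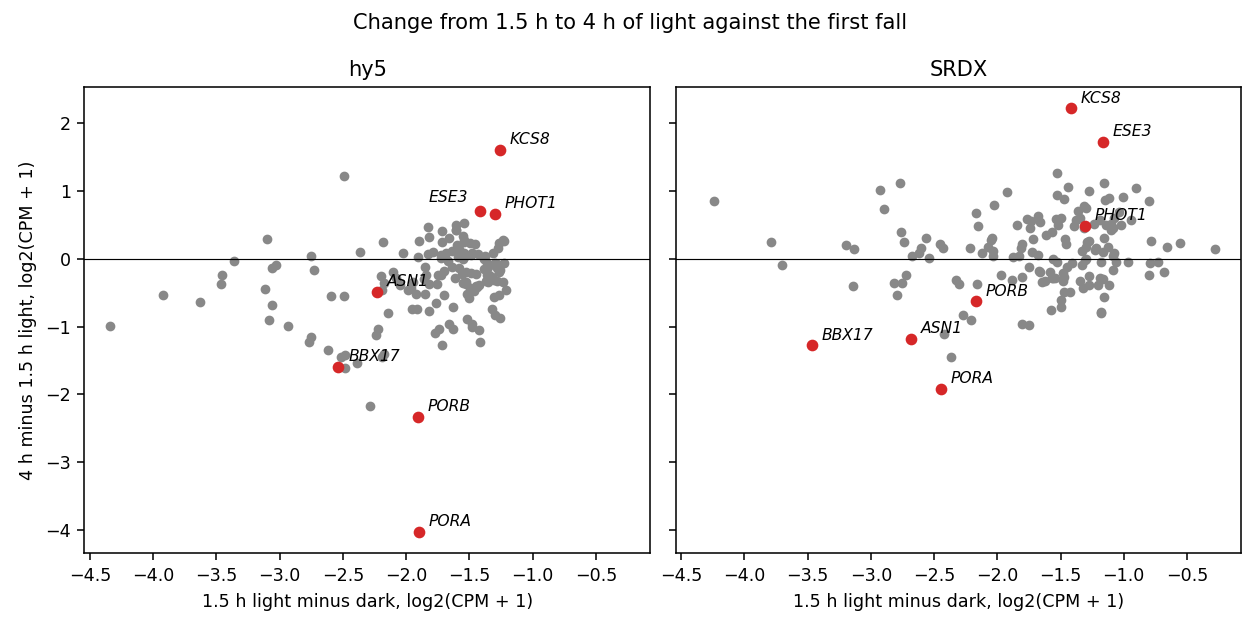
Change from 1.5 h to 4 h of light (y axis) against the change from dark to 1.5 h (x axis), both in log2(CPM + 1), in hy5 (left) and SRDX (right). Each point is 1 of the 158 genes and 7 named genes are red; PORA lies lowest and KCS8 highest in both genotypes.

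Set side by side at 4 h, 62 of the genes were higher and 1 was lower in SRDX than in hy5. Shares over all genes were 8.24% and 9.65%, and the median difference was 0.43 beside -0.01 over all genes. The rule chose genes for their fall in hy5 and not in SRDX, so a lower level in hy5 is partly expected. The shares over all genes do not correct for this, and it holds too for single genes compared at 4 h. Leaving out SRDX replicate 2 took the 62 to 37 and leaving out hy5 replicate 1 took it to 38, and a fit on these groups alone gave 39. CYP79B3, which makes indole-3-acetaldoxime from tryptophan, gave 56.0 and 61.8 CPM in SRDX and 19.3 and 15.7 in hy5, a difference of 1.70 ± 0.19 (limma, adjusted p = 9.01e-08). Its dark level was also higher in SRDX, at 84.8 and 98.3 CPM against 22.1, 16.96 and 21.4 in OX (difference of OX from SRDX -2.13 ± 0.17, adjusted p = 1.84e-10). BETA-TIP (2.04 ± 0.27), CBSX5 of the CBS domain family (1.95 ± 0.26) and the methyltransferase gene AT4G33120 (1.69 ± 0.15) were the other large differences. NUDT8, a nudix hydrolase gene, was the 1 lower gene (-0.66 ± 0.20, adjusted p = 0.0201), and its call was lost without SRDX replicate 1 (adjusted p = 0.146), SRDX replicate 2 (0.0521) or hy5 replicate 2 (0.166). The seed storage and lipid mobilisation sum was 3752 to 5119 CPM in SRDX and 1988 to 3016 in hy5 at 4 h, and its part in these differences was not tested.

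In the dark the lines were compared with one another. VP16 was lower than OX for 22 of the genes (13.9%) and higher for 7 (4.43%), against 5.66% and 5.70% of all genes. The 22 became 13 without VP16 replicate 1 and 12 without VP16 replicate 3. The cotyledon and plastid sum was 13056 to 21388 CPM in dark VP16, 7963 to 13747 in dark OX and 7094 to 9397 in dark SRDX, and its part in these differences was not tested. OX was lower than SRDX for 7 and higher for 8, against 9.06% and 7.86%, and the 8 became 4 without SRDX replicate 2 in the dark; both counts are shares of the 158 below the shares over all genes. VP16 was lower than SRDX for 24 (15.2%) and higher for 12 (7.59%), against 10.3% and 9.73%. The 24 became 15 without SRDX replicate 1 and 14 without SRDX replicate 2, and the 12 became 6 without VP16 replicate 2 and 4 without SRDX replicate 2. Among the members below SRDX in dark VP16 were ADS1, AT5G14920, CYP79B3 and AT4G33120, with differences of -1.46, -1.205, -1.19 and -1.18.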

How the data were processed

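Stranded poly(A) RNA-seq libraries were made from 32 whole-seedling samples with the TruSeq Stranded mRNA kit, per the labels' protocols. Per the submitters' processing notes, the tools were HTSeq 0.6.0, edgeR 3.16.5, TopHat2 2.0.11 with Bowtie2 2.2.2.0, CASAVA 1.8.2 and SAMtools 0.1.19.0, with the build TAIR10 and no order given, and the strand setting of the counting is not given in the sources used here. The authors deposited a table of CPM for 19685 genes whose columns sum to 925942 to 1066829, so the values were handled as a normalized signal and not as plain CPM. A second deposited table of log2 values was not used.

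Low values were whole multiples of what 1 read is worth. Dividing by that step gave whole reads for 100% of values within 0.01, and 7499581 to 21420680 reads per library, so that 1 read corresponds to 0.0457 to 0.131 CPM. Replicate libraries varied by 3.24 to 20.7 times the variance of counting over 28 pairs. The highest value was that of the hy5 pair at 4 h, on which the hy5 values at 4 h and the comparison of SRDX with hy5 rest.

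Values were used as log2(CPM + 1). Tests used limma 3.58.1 in R 4.3.3 with a mean for each of the 12 groups over all 32 libraries, trended moderation and Benjamini-Hochberg adjustment over the 19685 genes, and the call was an adjusted p below 0.05. Differences between light responses were contrasts within that fit. The fit was tested on simulated data with known falls, 50 genes at each fold, for OX and SRDX at 1.5 h against dark. In OX it recovered 30 at 1.5-fold, 37 at 2-fold, 46 at 4-fold and 46 at 8-fold. In SRDX it recovered 16, 34, 46 and 45 in that order. Of 19485 unchanged genes, 15 were called in OX and 5 in SRDX. Alternatives were a pseudocount of 0.25, genes with a mean of at least 1 or 5 CPM, median-of-ratios scaling, edgeR 4.0.16 and DESeq2 1.42.0 on the recovered reads, a fit on the compared groups alone, replicate number as a block, a fold of at least 2 and leaving out each library.

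The members and gene lists were chosen with earlier results of these data known. The counts over the ethylene and hook list under the alternatives, and the dark comparisons of ETR2 and HLS1, were added after values were seen. Genes named are the 12 deepest falls, the 12 highest in the dark, members on the lists, the 4 largest differences each way in each comparison, those at the limits of the rule, those with the least and most of the hy5 fall left at 4 h, and families of 3 or more members; HEC2 and the others not called lower in VP16, the genes not called lower in SRDX, CEL2, and the genes whose dark libraries lay apart were named after their values were seen. Promoter windows come from the RefSeq TAIR10.1 genome. Replicate numbers were not used to pair libraries in the main fit, since no comparison of 3 pairs had every correlation of deviations over 0.1. OX at 1.5 h against dark came close, with correlations of 0.363, 0.124 and 0.0942 for replicates 1, 2 and 3. Comparisons with only 2 pairs were not counted in this. Of them, dark OX with dark SRDX gave 0.268 and 0.169 and SRDX with hy5 at 4 h gave 0.121 in each pair. These were all over 0.1, and the other comparisons with 2 pairs were not. VP16 and OX at 1.5 h were not compared in this way, so a replicate order shared by them was not tested.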

Additional observations from a re-analysis of the deposited data

Results flagged for a closer look

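The light response differed between transgenic lines, by a test of the difference itself in limma with Benjamini-Hochberg adjustment, for the genes below. All values are differences of log2(CPM + 1) responses, and each comparison rests on 2 or 3 libraries per group.

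Against OX, the VP16 response was higher in AT3G20395 (2.72), ADS1 (2.31), BETA-TIP (1.86), ETR2 (1.85), ARL (1.62), HLS1 (1.34), TEM1 (1.02) and EBF2 (1.01). BETA-TIP gave 41.4, 44.3 and 37.9 CPM in dark OX and 3.26, 4.27 and 2.92 at 1.5 h, against 26.2, 38.3 and 29.3 and then 7.51, 17.8 and 10.3 in VP16.

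Against OX, the SRDX response was higher in AT2G17880, a DnaJ-domain protein gene (1.83), ATCTH, a CCCH zinc finger gene (1.52), AT5G19120 (1.51) and AT3G15450 (1.45). It was lower in AT4G35720 (-1.40), ST2A (-0.98), EXPA9 (-0.85) and AT2G37670 (-0.76). Without SRDX replicate 2 in the dark AT2G17880 (adjusted p = 0.0981) and AT3G15450 (adjusted p = 0.0767) were no longer called, and AT2G37670 was not called by edgeR or DESeq2.

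Against SRDX, the VP16 response was higher in ADS1 (2.38), AT3G20395 (2.04), ETR2 (1.75) and FLS2 (1.65), and lower in AT4G16000 (-1.31), AT3G24450 (-1.28), PDC3 (-1.12) and RAV1 (-1.09).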

How the results depend on the processing

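Among the single-gene values that were followed, no direction was reversed under any alternative run. Counts of members lower and higher with a block for replicate number were 158 and 0 in OX, 147 and 1 in VP16 and 156 and 0 in SRDX at 1.5 h, 0 and 36 for the VP16 response against OX, and within 1.5 times the count without the block in every comparison. With a fold of at least 2 also asked for, counts became 0 higher for VP16 at 1.5 h, 0 higher for SRDX at 4 h against dark, 5 lower and 8 higher for SRDX at 4 h against 1.5 h, and 0 lower and 21 higher for SRDX against hy5 at 4 h. For the light response they became 1 lower and 20 higher for SRDX against OX and 5 lower for VP16 against SRDX. For the dark they became 3 lower and 1 higher for VP16 against OX, 1 lower and 0 higher for OX against SRDX, and 8 lower and 0 higher for VP16 against SRDX. This follows from the added requirement. A fit on the compared groups alone gave 39 higher for SRDX against hy5 at 4 h, and 4 lower and 5 higher for OX against SRDX in the dark; a pseudocount of 0.25 gave 2 lower for SRDX against hy5 at 4 h. The cause was not tested.

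Leaving out each library gave 0 to 1 higher for VP16 at 1.5 h, which is ETR2 of the ethylene and hook list, and 142 to 147 lower. It gave 1 to 2 higher for SRDX at 4 h against dark, 10 to 14 lower and 16 to 30 higher for SRDX at 4 h against 1.5 h, and 0 to 2 lower and 37 to 58 higher for SRDX against hy5 at 4 h. For the light response it gave 0 to 1 lower and 22 to 37 higher for VP16 against OX, 3 to 6 lower and 13 to 39 higher for SRDX against OX, and 5 to 15 lower and 12 to 21 higher for VP16 against SRDX. For the dark it gave 12 to 17 lower for VP16 against OX, 4 to 8 higher for OX against SRDX, and 14 to 24 lower and 4 to 11 higher for VP16 against SRDX. For the whole ethylene and hook list it gave 1 to 2 lower for VP16 against SRDX. The lone library of a group of 2 was then assumed to vary like the other groups. The rule itself found 188 genes with a pseudocount of 0.25, of which 151 were shared, 153 with median-of-ratios scaling, of which 152 were shared, and 141 to 165 with a library left out. Of the single-gene values, 1073 kept their side of the threshold and 55 lost the call. Groups of 2 libraries limit SRDX and every 4 h value.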

Other observations

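Some of the 158 genes lie side by side on the chromosomes or overlap other genes. Among measured genes 7 pairs of members were direct neighbours, taking in 13 members. These were GATL3 with RAV1, AT1G77200 with STP14, AT2G37670 with FHY1, AT3G18530 with AT3G18535, PORB with AT4G27450, AT4G27450 with CBSX5, and AT5G02540 with AT5G02550, and they are named because they are neighbours. The spans of 32 members overlapped another measured gene, 28 on the opposite strand and 4 on the same strand. Among them AT3G18530 and AT3G18535 overlap on the same strand and PORB and AT4G27450 on opposite strands, so the reads of these pairs may not be separate.

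PORB and AT4G27450 both went down in steps. PORB gave 2081, 1974 and 2163 CPM in dark hy5, 407, 654 and 634 at 1.5 h and 102 and 116 at 4 h. AT4G27450 gave 226, 256 and 273, then 67.7, 72.0 and 88.2, then 24.5 and 38.6 CPM. In SRDX PORB went from 1634 and 1748 CPM in the dark to 222 and 264 at 4 h and AT4G27450 from 381 and 356 to 91.6 and 79.1.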
